A study of Mus musculus with 6 samples.

Results

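The cell cycle and proliferation genes described here are 40 named genes of DNA replication, G1 and S phase control, G2, mitosis and cytokinesis, and all 40 were found by symbol among the 14798 genes of the deposited table. The RNA came from left ventricular scar tissue of mice whose left anterior descending artery (LAD) was tied off at 10 weeks of age, taken 6 weeks after that infarction, and the labels give the mice as 14 to 16 weeks old. There were 3 libraries from scars with a Sox9 deletion in fibroblasts, labelled Sox9 fl/perCre, and 3 libraries from control scars, labelled Sox9 fl/fl, so both groups carry floxed Sox9. The labels place the Cre activity in fibroblasts only, do not spell out what Per stands for, and do not name the animal behind each library. P-values therefore reflect how far these samples spread, and how much of that spread is technical is not known. Control replicate 3 alone had a female profile, given below, so it did not share an animal with the other controls. By the labels, cells of the scar other than fibroblasts would keep Sox9 in both groups, which RNA of whole tissue cannot check. Since the whole scar was sequenced, fewer cells of a type and less RNA per cell cannot be told apart.

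A cell that enters the cycle first makes D-type cyclins, whose kinases phosphorylate the retinoblastoma protein and free E2F factors to turn on genes for DNA replication. A later wave, driven by the MuvB complex with B-MYB and FOXM1, turns on genes of G2 and mitosis, whose promoters often carry a cell cycle homology region (CHR) and CCAAT boxes. In the infarcted heart, fibroblasts, immune cells and endothelial cells are known to proliferate mainly in the first days after injury, whereas adult cardiomyocytes seldom divide.

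Promoters were read from a RefSeq table on GRCm38.p6, as the 250 bases before to 50 after each gene's start, for 32 of the 40 genes. Mcm4, Ccnd1, Ccnd2, Foxm1, Ccna2, Aurkb, Kif20a and Tpx2 were not matched. The motifs searched on both strands were TTTGAA and TTTAAA for the CHR, CCAAT, and TTTCGCGC, TTTGGCGC, TTTCCCGC and TTTGCCGC for E2F sites. TTTAAA is its own reverse complement, and some matches share bases, such as a pair of E2F sequences in Mcm6. Of the 19 matched genes of G2 and mitosis, 17 held a CHR sequence, 17 held CCAAT and 16 held both, against 19.8%, 38.0% and 7.79% of 11220 promoters of genes in the deposited table. Of the 10 matched genes of replication and nucleotide supply, 8 held CCAAT, 4 held a CHR sequence and 4 held an E2F sequence, which 3.86% of all promoters held. None of the 3 matched genes of G1 and S control (Cdkn1a, E2f1 and Mybl2) held any of these motifs, which says only that the letters are not in this window. The promoters printed are those of genes that carry the results below. They are the proliferation marker Mki67, the mitotic cyclin gene Ccnb2 and kinase gene Cdk1, which were highest in the same library, the helicase gene Mcm6, which had the lowest p-value of the 40, and Tyms, which alone had groups that did not overlap. Capitals mark the CHR, CCAAT and E2F letters, of which the Tyms window holds none, and each sequence runs 5′ to 3′ on the gene's strand, which is the minus strand for all 5 genes. The windows are chr7:135716330-135716629 for Mki67, chr9:70421505-70421804 for Ccnb2, chr10:69352863-69353162 for Cdk1, chr1:128359656-128359955 for Mcm6 and chr5:30073576-30073875 for Tyms.
Mki67: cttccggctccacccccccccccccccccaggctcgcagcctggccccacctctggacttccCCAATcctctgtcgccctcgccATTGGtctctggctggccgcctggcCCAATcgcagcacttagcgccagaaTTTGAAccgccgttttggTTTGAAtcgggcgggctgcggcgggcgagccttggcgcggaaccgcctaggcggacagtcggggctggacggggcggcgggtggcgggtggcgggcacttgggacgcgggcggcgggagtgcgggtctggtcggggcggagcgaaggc
Ccnb2: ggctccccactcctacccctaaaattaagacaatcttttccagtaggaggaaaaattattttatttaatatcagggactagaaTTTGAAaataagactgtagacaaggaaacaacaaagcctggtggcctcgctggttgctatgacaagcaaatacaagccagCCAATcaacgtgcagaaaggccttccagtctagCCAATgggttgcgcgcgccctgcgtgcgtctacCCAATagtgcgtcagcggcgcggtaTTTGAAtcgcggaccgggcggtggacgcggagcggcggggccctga
Cdk1: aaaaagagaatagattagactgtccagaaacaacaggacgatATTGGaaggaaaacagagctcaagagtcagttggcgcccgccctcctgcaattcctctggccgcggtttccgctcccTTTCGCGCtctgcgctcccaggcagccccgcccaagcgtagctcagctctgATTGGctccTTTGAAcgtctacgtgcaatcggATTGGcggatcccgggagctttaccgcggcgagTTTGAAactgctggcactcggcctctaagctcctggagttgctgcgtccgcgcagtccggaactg
Mcm6: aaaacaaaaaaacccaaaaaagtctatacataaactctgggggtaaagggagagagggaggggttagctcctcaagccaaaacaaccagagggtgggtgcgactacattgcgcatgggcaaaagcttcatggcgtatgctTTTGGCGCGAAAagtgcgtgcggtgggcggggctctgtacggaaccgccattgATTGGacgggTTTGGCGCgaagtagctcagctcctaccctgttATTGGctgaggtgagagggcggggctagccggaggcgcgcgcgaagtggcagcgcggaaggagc
Tyms: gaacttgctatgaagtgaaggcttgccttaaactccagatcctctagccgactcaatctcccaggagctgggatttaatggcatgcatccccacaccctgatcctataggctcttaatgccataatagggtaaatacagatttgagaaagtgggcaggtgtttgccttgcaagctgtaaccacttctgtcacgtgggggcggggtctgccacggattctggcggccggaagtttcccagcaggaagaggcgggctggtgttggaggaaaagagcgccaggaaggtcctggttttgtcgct

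The targeted gene Sox9 (chromosome 11, 112782210 to 112787757 in mm10) had 42.1, 51.7 and 55.8 CPM in deletion replicates 1 to 3, against 71.1, 75.8 and 67.7 CPM in control replicates 1 to 3. CPM are a gene's counts relative to the library's total, scaled by edgeR's TMM factors. All deletion libraries lay below all control libraries, with a log2 fold change, deletion minus control, of -0.52 ± 0.15 (SE). In edgeR's test Sox9 had an unadjusted p of 0.00985 and an adjusted p of 0.564. That adjusted p was the lowest of any gene tested, but other genes shared it. The lowest unadjusted p in that test was 0.000495, in another gene. Total counts per library ran from 18538171 to 55523974. Every count of replicates 2 and 3 of both groups was even, and 49.3% and 49.9% of the counts were even in deletion and control replicate 1. Whether each even count stands for single fragments is not known, so counts as deposited may not compare directly with those of replicate 1. Those replicate 1 libraries also held 22484 and 12176 CPM of the ribosomal RNA precursor Rn45s, which ran from 623 to 1004 CPM in the remaining 4. Control replicate 3 was the 1 library with a female profile, at 812 CPM of Xist, where no other library exceeded 7.61 CPM. Deletion replicate 1 stood apart in its high cardiomyocyte marker level, given below. All 8 cardiomyocyte markers and all 8 fibroblast markers looked for were measured. Their mean levels ran from 1155 to 24786 CPM for cardiomyocytes and from 33.3 to 2864 CPM for fibroblasts. Heart muscle RNA was thus abundant in samples labelled as scar, and the share of scar in each was not measured.

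No cell cycle gene passed the test between deletion and control scars, and most fitted differences were smaller than the spread of the libraries. In edgeR's quasi-likelihood test, 0 of the 40 passed a Benjamini-Hochberg adjusted p of 0.05 (background 0% of 14771 genes tested), and the lowest adjusted p among them was 0.565. None of the 40 reached an unadjusted p below 0.05 in either direction, against 5.30% of all genes higher and 3.04% lower in deletion scars. DESeq2 also called 0 of the 40, against 0.352% of all genes past its adjusted threshold, and 0 of the 40 had an unadjusted p below 0.05 there, against 12.2% of all genes. The fitted log2 fold change was below 0 for 34 of the 40, against 52.4% of all genes, with a median of -0.19 beside -0.017 over all genes tested. For 31 of the 40 the fold change was smaller than its own standard error, against 50.7% of all genes. The 3 deletion libraries lay wholly below the 3 control libraries in 1 gene, Tyms, and wholly above in 0, where the background is 8.60% lower and 8.87% higher.

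**Figure D1:**
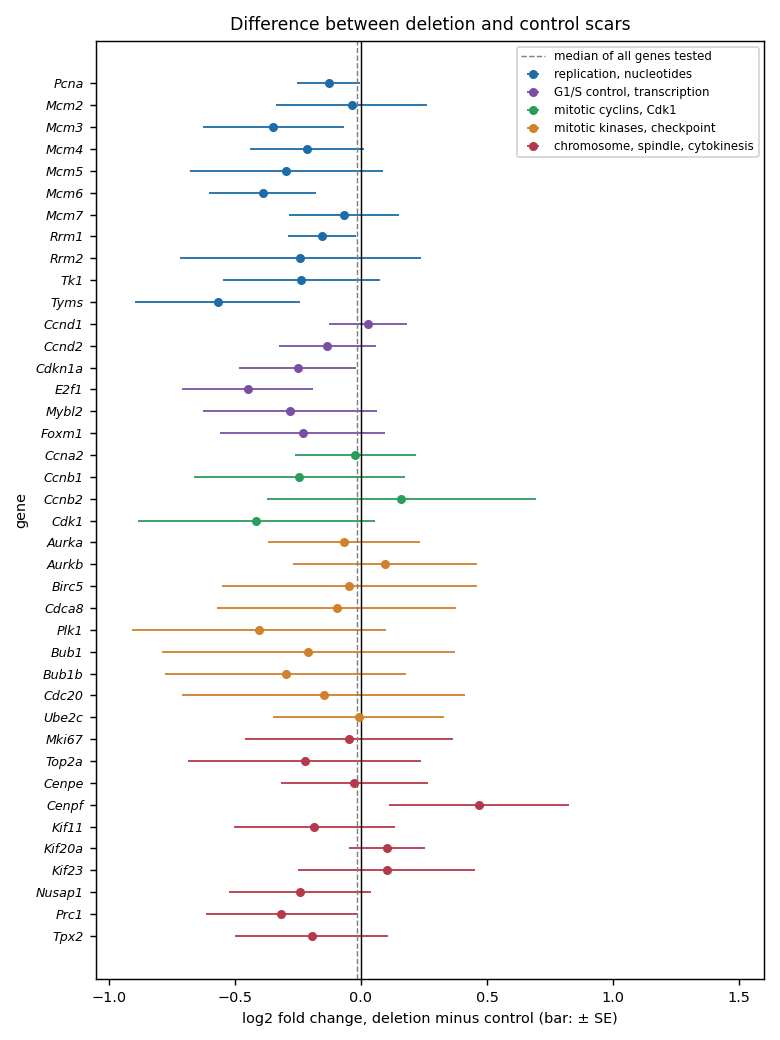
Log2 fold change of each of the 40 cell cycle genes, deletion minus control, with the standard error as a bar, coloured by role; the dashed line is the median of all 14771 genes tested. Points run from -0.57 for Tyms to 0.47 for Cenpf, 34 of the 40 lie below 0, and most bars reach across 0.

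The direction of that small shift rested on control replicate 3. It was the library with the highest level in 32 of the 40 genes, where it was the highest in 20.4% of all genes tested. The lowest level was in replicate 1 of either group in 32 of the 40, against 50.5% of all genes. When only the total count set the scale, the median of all genes moved to -0.15 and that of the 40 to -0.33, and Ccnd1, Ccnb2, Aurkb, Kif20a and Kif23 turned below 0, which left Cenpf alone above it. Without control replicate 3 the median of the 40 was 0.11, beside 0.012 over all genes, and 26 of the 40 were above 0, against 51.7% of all genes. Without control replicate 1 the median was -0.37 and 37 of the 40 were below 0, against 52.8% of all genes. Without deletion replicate 1 it was -0.078 and 25 were below 0, against 54.8% of all genes, and with replicates 2 and 3 only it was -0.25 and 37 were below 0, against 55.0% of all genes. No gene of the 40 was called in any of these fits. The heat map of the 40 genes by library shows both features.

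**Figure D2:**
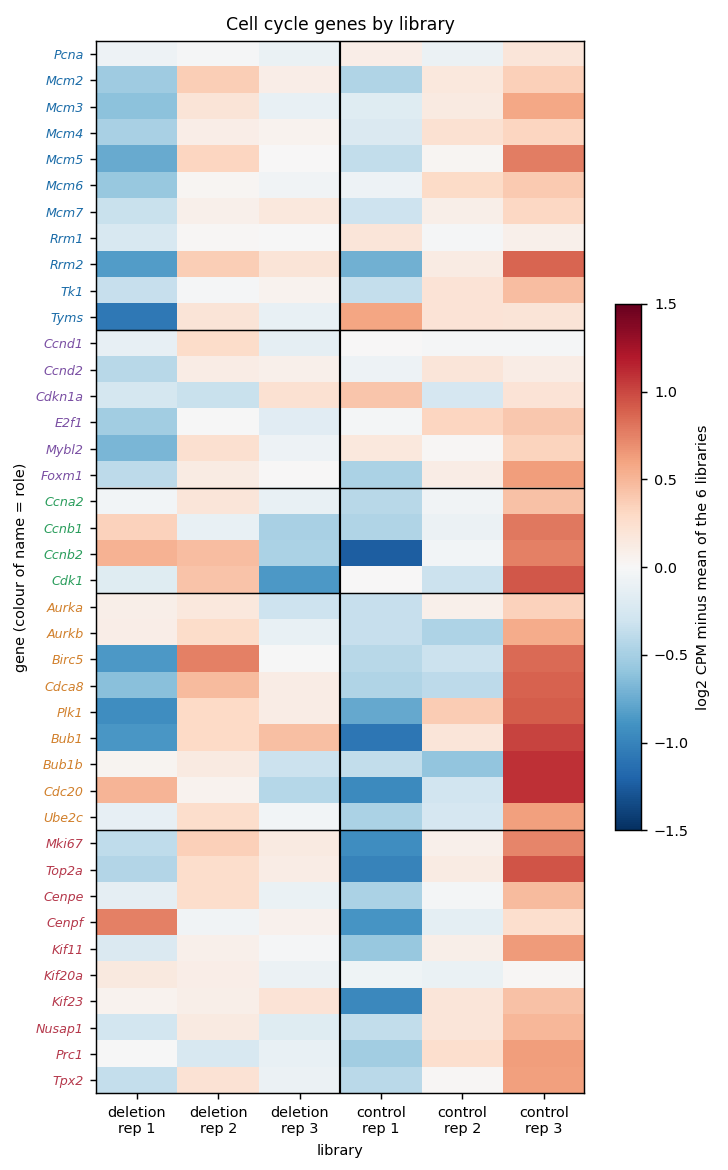
Log2 CPM of the 40 genes in each library minus the gene's mean over the 6 libraries, ordered by role, with deletion scars left of the line and control scars right of it. The column of control replicate 3 is the highest in 32 of the 40 rows, and the lowest value falls in deletion replicate 1 in 15 rows and in control replicate 1 in 17.

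Genes of the replication machinery and of deoxynucleotide supply were all below 0 in the fitted difference, 11 of 11, with a median log2 fold change of -0.24, and none passed the test. The MCM helicase, formed by the proteins of Mcm2 to Mcm7, unwinds DNA at replication forks. Mcm6 (chromosome 1, 128331575 to 128359705) had 15.4, 23.3 and 21.97 CPM in deletion replicates 1 to 3, against 21.6, 27.8 and 30.1 CPM in control replicates 1 to 3. Only the lowest control library, replicate 1, lay within the range of the deletion libraries. The fitted log2 difference was -0.39 ± 0.21 (SE; unadjusted p = 0.111, edgeR adjusted p = 0.565). With a term for the split between replicate 1 and replicates 2 and 3 it was -0.40 (unadjusted p = 0.00835, edgeR adjusted p = 0.106), and Mcm6 was the 1 gene of the 40 with an unadjusted p below 0.05 there, against 8.87% of all genes lower, while 0 of the 40 and 0.00677% of all genes passed the adjusted threshold. In replicates 2 and 3 alone it was -0.37 (edgeR adjusted p = 0.216). Mcm3 had 9.76, 17.2 and 13.9 CPM in deletion replicates 1 to 3, against 13.2, 16.4 and 22.4 CPM in control replicates 1 to 3, a difference of -0.35 ± 0.28 (SE). The groups overlapped, and the lowest library was deletion replicate 1 and the highest control replicate 3, as they also were for Mcm4, Mcm5 and Mcm6.

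The other helicase genes had smaller differences. Mcm2 ran from 9.29 to 17.4 CPM in deletion scars and 9.85 to 17.2 CPM in control scars, and Mcm4 from 13.6 to 20.5 CPM in deletion scars and 16.4 to 23.7 CPM in control scars. Mcm5 ran from 4.43 to 9.35 CPM in deletion scars and 5.79 to 12.8 CPM in control scars, and Mcm7 from 14.4 to 20.2 CPM in deletion scars and 14.5 to 22.5 CPM in control scars. The fitted differences were -0.037 for Mcm2, -0.21 for Mcm4, -0.30 for Mcm5 and -0.069 for Mcm7. Mcm7 shares exonic bases with Ap4m1 and Cops6 on the opposite strand and hosts Mir25 and Mir93, and the use of strand in counting is not given in the sources used here. Pcna, the sliding clamp of DNA polymerases and the most abundant of the 40 per kilobase of transcript (40.6 CPM per kilobase over all libraries), had 48.0, 50.2 and 47.3 CPM in deletion replicates 1 to 3, against 54.3, 47.5 and 57.3 CPM in control replicates 1 to 3. Its levels spanned 0.27 on the log2 scale over the 6 libraries and its groups overlapped.

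Thymidylate synthase (Tyms, chromosome 5, 30058200 to 30073625), which makes thymidine monophosphate, had 4.43, 10.6 and 8.57 CPM in deletion replicates 1 to 3, against 14.0, 10.7 and 10.7 CPM in control replicates 1 to 3. Its difference of -0.57 ± 0.33 (SE) was the lowest of the 40 and did not pass the test (unadjusted p = 0.129, edgeR adjusted p = 0.572). The gap between the groups was narrow, since deletion replicate 2 and control replicates 2 and 3 were almost equal. The replicate 1 pair differed by -1.65 (log2) and replicates 2 and 3 by -0.16, so most of the difference lay between deletion replicate 1 and control replicate 1. The ribonucleotide reductase subunits make deoxynucleotides. The large subunit Rrm1 had 31.4, 37.6 and 36.9 CPM in deletion replicates 1 to 3, against 42.2, 36.6 and 39.1 CPM in control replicates 1 to 3. The S phase subunit Rrm2 had 1.90, 4.37 and 3.86 CPM in deletion replicates 1 to 3, against 2.06, 3.69 and 6.23 CPM in control replicates 1 to 3. Rrm2 was lowest in replicate 1 of both groups and highest in control replicate 3, whereas Rrm1 was highest in control replicate 1. Thymidine kinase (Tk1), which salvages thymidine, ran from 1.73 to 3.05 CPM and differed by -0.24 ± 0.31 (SE). It shares exonic bases with Afmid on the opposite strand.

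Genes that control entry into S phase and their transcription factors included 3 of the 4 most abundant of the 40 per kilobase, Ccnd2, Cdkn1a and Ccnd1, after Pcna. None of the 6 passed the test, 5 had a fitted difference below 0, and the median was -0.24. D-type cyclins carry growth signals into the cycle. Cyclin D2 (Ccnd2, chromosome 6, 127125709 to 127151048) had 159, 229 and 223 CPM in deletion replicates 1 to 3, against 201, 241 and 229 CPM in control replicates 1 to 3. Cyclin D1 (Ccnd1) had 91.9, 121 and 91.4 CPM in deletion replicates 1 to 3, against 101, 98.8 and 98.9 CPM in control replicates 1 to 3. Both exceeded Mki67 in CPM per kilobase, at 37.1 and 26.5 against 3.84 over all libraries, and deletion replicate 1 had the lowest Ccnd2 level of the 6. The groups overlapped in both genes, which differed by -0.13 ± 0.19 and 0.028 ± 0.15 (SE). Each shares exonic bases with a gene on the opposite strand, LTO1 for Ccnd1 and Gm43126 and 9330179D12Rik for Ccnd2.

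The inhibitor p21 (Cdkn1a, chromosome 17, 29093769 to 29100722), which blocks cyclin-dependent kinases and is a target of p53, had 49.1, 46.9 and 69.5 CPM in deletion replicates 1 to 3, against 79.0, 49.8 and 68.5 CPM in control replicates 1 to 3. Its highest and second highest values were in control replicate 1 and deletion replicate 3, so the groups were mixed, and the difference was -0.25 ± 0.23 (SE, edgeR adjusted p = 0.692). The activator E2f1 (chromosome 2, 154559400 to 154569426), which turns on replication genes, had 2.16, 3.10 and 2.78 CPM in deletion replicates 1 to 3, against 3.06, 3.88 and 4.11 CPM in control replicates 1 to 3. Only control replicate 1 fell within the range of the deletion libraries, just below deletion replicate 2. E2f1 differed by -0.45 ± 0.26 (SE, unadjusted p = 0.130, edgeR adjusted p = 0.572), by -0.49 in the replicate 1 pair and by -0.44 in replicates 2 and 3, so its size was alike in both sets of libraries. B-MYB (Mybl2) was among the lowest of the 40 at 0.897 to 1.82 CPM, and Foxm1, a driver of the G2 and mitotic wave, ran from 2.84 to 6.09 CPM with its maximum in control replicate 3. They differed by -0.28 ± 0.34 and -0.23 ± 0.33 (SE). Foxm1 shares exonic bases with Gm44596 and Tex52 on the same strand, and Cdkn1a with AC167363.2 on the opposite strand.

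**Figure D3:**
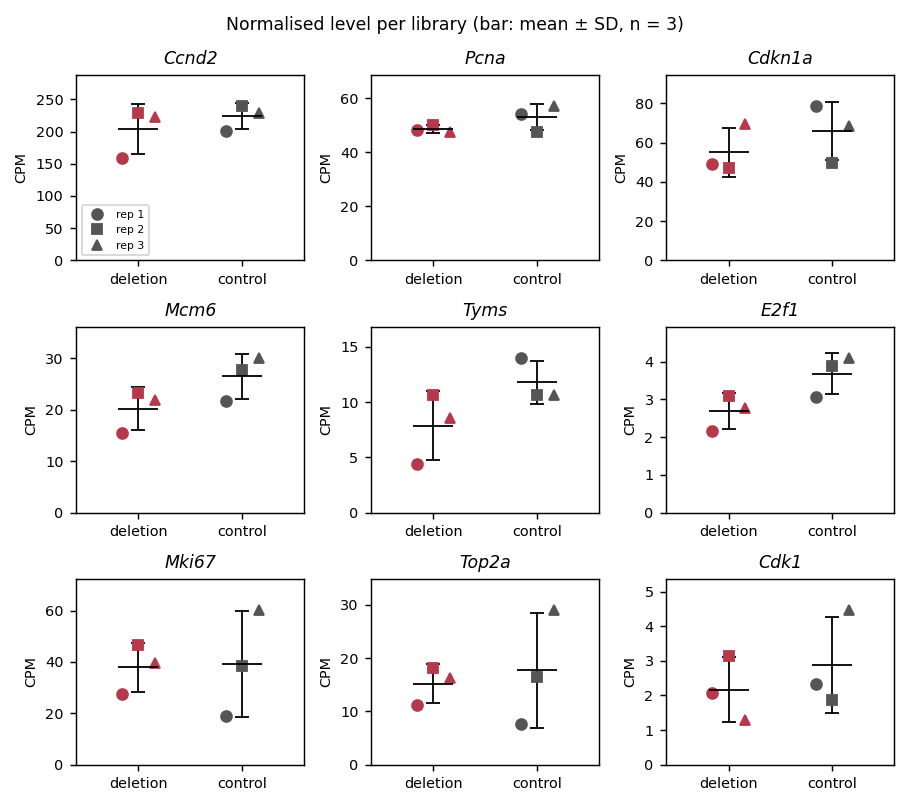
CPM of 9 cell cycle genes per library, deletion scars left and control scars right of each panel, with circles, squares and triangles for replicates 1, 2 and 3 and a bar for the mean ± SD (n = 3). Mcm6, Tyms and E2f1 have deletion means below control means with touching or overlapping ranges, and the Mki67 and Top2a controls span the deletion libraries, with control replicate 3 at the top, as in Cdk1.

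The 23 genes of G2, mitosis and cytokinesis had a median log2 fold change of -0.096, with 18 below and 5 above 0 and none past the test. Their levels varied more among the control libraries than among the deletion libraries. The SD of log2 CPM was larger in controls than in deletion scars for 21 of the 23, against 42.5% of all genes tested. Control replicate 3 was the highest library in 21 of the 23. Without it, 20 of the 23 had positive differences (median 0.33), whereas 7 of the 11 replication genes stayed below 0 (median -0.068), and none was called.

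Mki67 (chromosome 7, 135689788 to 135716379), the Ki-67 protein gene used as a marker of cycling cells, had 27.7, 46.5 and 39.7 CPM in deletion replicates 1 to 3, against 19.0, 38.3 and 60.3 CPM in control replicates 1 to 3. The control libraries enclosed all deletion libraries, with replicate 1 below and replicate 3 above them. The means were 38.0 ± 9.53 CPM in deletion scars and 39.2 ± 20.6 CPM in control scars (SD, n = 3 each). The fitted log2 difference was -0.048 ± 0.41 (SE, edgeR adjusted p = 0.972). Without control replicate 3 the difference was 0.40 (edgeR adjusted p = 0.835). Topoisomerase II alpha (Top2a, chromosome 11, 98992947 to 99024189), which untangles sister chromatids, had 11.1, 18.2 and 16.3 CPM in deletion replicates 1 to 3, against 7.57, 16.5 and 29.0 CPM in control replicates 1 to 3. Again control replicate 3 was the highest library and control replicate 1 the lowest, and the difference was -0.22 ± 0.46 (SE, edgeR adjusted p = 0.866). Top2a has a small RNA gene, Gm23451, within its exons on the same strand.

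Among the mitotic cyclins and their kinase, Cdk1 (chromosome 10, 69336635 to 69352912) had 2.06, 3.15 and 1.29 CPM in deletion replicates 1 to 3, against 2.34, 1.86 and 4.47 CPM in control replicates 1 to 3. Control replicate 3 was the highest and deletion replicate 3 the lowest, and the difference was -0.41 ± 0.47 (SE). Cyclin A2 (Ccna2), which acts in S phase and G2, had 13.8, 16.0 and 13.1 CPM in deletion replicates 1 to 3, against 10.6, 13.7 and 19.2 CPM in control replicates 1 to 3, and shares exonic bases with Exosc9 on the opposite strand. The B cyclins, which start mitosis with Cdk1, had 2.22, 1.62 and 1.25 CPM in deletion replicates 1 to 3, against 1.28, 1.65 and 3.01 CPM in control replicates 1 to 3 for Ccnb1. Ccnb2 had 2.64, 2.54 and 1.33 CPM in deletion replicates 1 to 3, against 0.779, 1.79 and 3.11 CPM in control replicates 1 to 3. In both the replicate 1 pair was higher in the deletion library, with log2 differences of 0.77 for Ccnb1 and 1.70 for Ccnb2, whereas replicates 2 and 3 differed by -0.63 and -0.35. These rest on 14 to 188 counts per library as deposited, so they carry more counting error than most of the replication genes.

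The 9 genes of mitotic kinases, the chromosomal passenger complex, the checkpoint and the anaphase-promoting complex had a median of -0.096, with 8 below 0. All 9 were highest in control replicate 3. Aurora A (Aurka), a spindle pole kinase, ran from 1.77 to 2.45 CPM in deletion scars and from 1.73 to 2.78 CPM in controls. Aurora B (Aurkb), the kinase of the passenger complex, had 2.06, 2.32 and 1.77 CPM in deletion replicates 1 to 3, against 1.503, 1.39 and 2.81 CPM in control replicates 1 to 3. Survivin (Birc5), another subunit, had 2.48, 7.65 and 4.51 CPM in deletion replicates 1 to 3, against 3.39, 3.62 and 8.11 CPM in control replicates 1 to 3. Borealin (Cdca8), the third of these, had 1.53, 3.28 and 2.54 CPM in deletion replicates 1 to 3, against 1.73, 1.79 and 4.34 CPM in control replicates 1 to 3. The 3 genes thus had deletion replicate 2 second to control replicate 3, and the fitted differences were 0.095, -0.046 and -0.096.

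Polo-like kinase 1 (Plk1), which drives centrosome maturation and mitotic exit, had the lowest fitted difference of these 9 at -0.40 ± 0.50 (SE), from 0.844 to 1.97 CPM in deletion scars and 0.946 to 3.01 CPM in control scars, on 16 and 17 counts in deletion and control replicate 1. The checkpoint kinase Bub1 was the least abundant of the 40 per kilobase, at 0.581 to 1.45 CPM in deletion scars and 0.501 to 2.15 CPM in control scars, on 11 and 9 counts in deletion and control replicate 1. Its partner Bub1b had 3.85, 4.11 and 2.98 CPM in deletion replicates 1 to 3, against 2.89, 2.49 and 8.01 CPM in control replicates 1 to 3. Control replicate 3 stood well above the other 5 libraries, and the difference was -0.30 ± 0.48 (SE). Cdc20 and Ube2c, an activator and the ubiquitin-conjugating enzyme of the anaphase-promoting complex, differed by -0.15 ± 0.56 and -0.0092 ± 0.34 (SE). Cdc20 ran from 1.13 to 2.16 CPM in deletion scars and 0.779 to 3.25 CPM in control scars. Ube2c ran from 3.11 to 4.06 CPM in deletion scars and 2.45 to 5.199 CPM in control scars, so control replicate 3 was the top of both. Cdc20, Plk1, Cdca8 and Ube2c share exonic bases with genes on the opposite strand, among them the muscle troponin gene Tnnc2 for Ube2c.

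Genes of kinetochores, spindle motors and cytokinesis had 7 of 10 fitted differences below 0 and a median of -0.12. Centromere protein F (Cenpf, chromosome 1, 189640614 to 189688086), a kinetochore protein with the highest fitted difference of the 40, had 10.6, 6.08 and 6.60 CPM in deletion replicates 1 to 3, against 3.39, 5.70 and 7.52 CPM in control replicates 1 to 3. Deletion replicate 1 was the highest library and control replicate 1 the lowest, and the difference was 0.47 ± 0.36 (SE, unadjusted p = 0.233, edgeR adjusted p = 0.649). Deletion replicate 1 exceeded control replicate 1 by 1.63 on the log2 scale, and the difference over replicates 2 and 3 was -0.048. Cenpe, a kinetochore motor at 4.80 to 6.34 CPM in deletion scars and 3.78 to 7.35 CPM in control scars, differed by -0.027 ± 0.29 (SE).

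Kinesin 5 (Kif11), which keeps spindle poles apart, and Tpx2, a spindle assembly factor, had differences of -0.18 ± 0.32 and -0.20 ± 0.30 (SE). Kif11 ran from 4.75 to 5.81 CPM in deletion scars and 3.73 to 8.54 CPM in control scars, and Tpx2 from 5.38 to 8.04 CPM in deletion scars and 5.23 to 10.6 CPM in control scars, each lowest and highest in controls. The cytokinesis motor Kif23 had 6.44, 6.60 and 7.12 CPM in deletion replicates 1 to 3, against 3.17, 7.06 and 8.41 CPM in control replicates 1 to 3. Only control replicate 1 stood apart from the others, and the difference was 0.10 ± 0.35 (SE). Prc1, which bundles midzone microtubules, had 7.07, 6.03 and 6.56 CPM in deletion replicates 1 to 3, against 4.95, 8.45 and 10.96 CPM in control replicates 1 to 3. Its difference of -0.32 ± 0.30 (SE) was -0.64 in replicates 2 and 3 alone (unadjusted p = 0.0215, edgeR adjusted p = 0.240), where 2 of the 40, Mcm6 and Prc1, had an unadjusted p below 0.05 with lower deletion levels, against 6.34% of all genes. The microtubule protein Nusap1, at 3.75 to 4.98 CPM in deletion scars and 3.51 to 6.39 CPM in control scars, differed by -0.24 ± 0.28 (SE). Kif20a, another cytokinesis motor, was the steadiest of the 40, within 0.25 on the log2 scale over the 6 libraries at 10.9 to 12.9 CPM. It shares 1271 of its 4338 exonic bases with Cdc23 on the opposite strand, and without strand reads on those shared bases could come from either gene. Prc1 and Nusap1 share bases with opposite-strand genes too.

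The replicate 1 pair and replicates 2 and 3 gave different directions for most mitotic genes. All 10 genes of chromosomes, spindle and cytokinesis were higher in deletion replicate 1 than in control replicate 1, whereas 9 of the 10 were lower in deletion replicates 2 and 3 than in controls 2 and 3. Over the 23 genes of G2 and mitosis this pattern of higher in the first and lower in the second was held by 17, against 17.1% of all genes tested. Replication genes were mostly lower in both: 10 of 11 in the replicate 1 pair and 11 of 11 in replicates 2 and 3. This rested in part on single libraries. In the fit without deletion replicate 1, 8 of the 11 were below 0 (median -0.085). Without control replicate 3 it was 7 of the 11 (median -0.068). Of the 40, 19 were lower in the replicate 1 pair (median 0.027), where 49.7% of all genes were, and 35 were lower over replicates 2 and 3 (median -0.21), where 52.0% of all genes were. The replicate 1 libraries were those with high Rn45s, lower total counts and counts not all even. The part of these traits in this was not tested. The replicate 1 values rest on 1 library a group and have no replicate check, and no test of the difference between these sets was made.

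**Figure D4:**
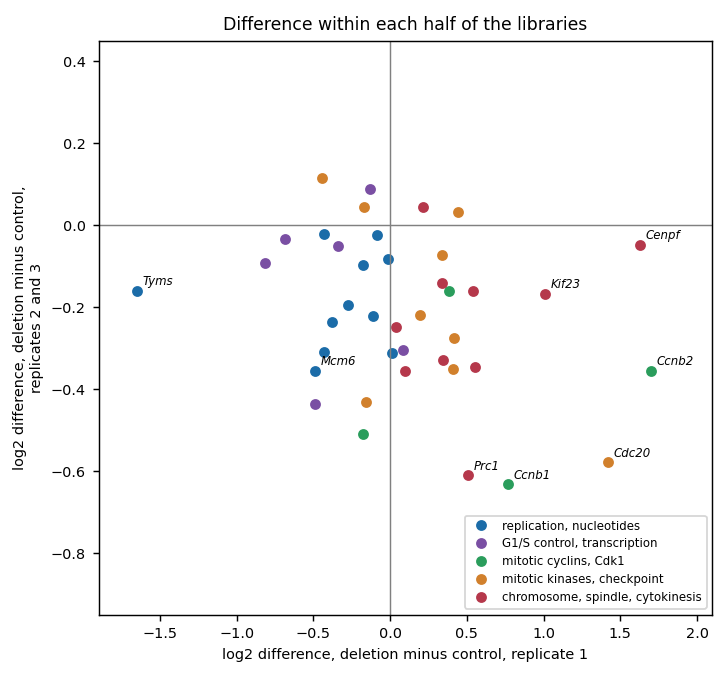
Log2 difference, deletion minus control, of the 40 genes in the replicate 1 pair (horizontal axis) and in replicates 2 and 3 (vertical axis), coloured by role. Mitotic genes lie mostly to the right of 0 and below 0, led by Ccnb2 at 1.70 and Cenpf at 1.63 on the horizontal axis, and replication genes lie mostly to the left and below, with Tyms at -1.65.

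The immune marker lists all had their highest summed level in control replicate 3. Single B and plasma cell markers and single neutrophil and monocyte markers were less uniform. The summed level of 6 leukocyte markers (Ptprc, Coro1a, Laptm5, Cd53, Cd52 and Tyrobp, all measured) was 124, 355 and 337 CPM in deletion replicates 1 to 3, against 253, 317 and 732 CPM in control replicates 1 to 3. That of 7 of 8 T and natural killer cell markers was 7.76, 24.1 and 33.2 CPM in deletion replicates, against 12.7, 14.3 and 109 CPM in control replicates. For 7 of 8 B and plasma cell markers it was 12.6, 92.0 and 27.5 CPM in deletion replicates, against 30.3, 20.8 and 205 CPM in control replicates. Control replicate 3 had the highest summed level for these 3 lists and for the cell cycle genes. Among the 7 B and plasma cell markers, however, 5 were highest in deletion replicate 2 and 2 in control replicate 3, and their mean log2 level relative to the 6 libraries was 1.87 in deletion replicate 2 and 1.49 in control replicate 3. Neutrophil and monocyte markers (6 of 8) summed to 36.6, 78.6 and 67.4 CPM in deletion replicates, against 59.5, 53.9 and 131 CPM in controls. Their mean log2 levels on that scale were -0.66, 0.65 and 0.20 in deletion replicates, against 0.49, -0.75 and 0.074 in controls. Their fitted median was 0.27. No measured marker of the lists was at 0 in any library, and the markers not measured were not checked. Macrophage markers (8 of 8) summed to 643 to 1276 CPM in deletion scars and 998 to 2160 CPM in controls, with the maximum in control replicate 3.

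Cardiomyocyte markers (8 of 8) summed to 110439, 52858 and 51401 CPM in deletion replicates 1 to 3, against 55042, 31417 and 34218 CPM in control replicates 1 to 3. The mean log2 level of the 40 cell cycle genes relative to the 6 libraries was -0.28, 0.17 and -0.061 in deletion replicates 1 to 3, against -0.37, 0.0041 and 0.54 in control replicates 1 to 3. The leukocyte list on the same scale was at -1.40, 0.35 and 0.12 in deletion replicates, against -0.28, -0.065 and 1.27 in control replicates. Fibroblast markers (8 of 8) summed to 4139 to 9599 CPM in deletion scars and 9394 to 10871 CPM in controls, and were lowest in deletion replicate 1. Endothelial markers (8 of 8) summed to 1381, 796 and 728 CPM in deletion replicates, against 823, 870 and 730 CPM in controls. Pericyte and smooth muscle markers (8 of 8) had their highest sum, 2302 CPM, in control replicate 2. Erythroid markers (6 of 6) had theirs, 8379 CPM, in deletion replicate 2. The part of these cell types, and of the sex of the donor of control replicate 3, in the levels of cell cycle genes was not tested.

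**Figure D5:**
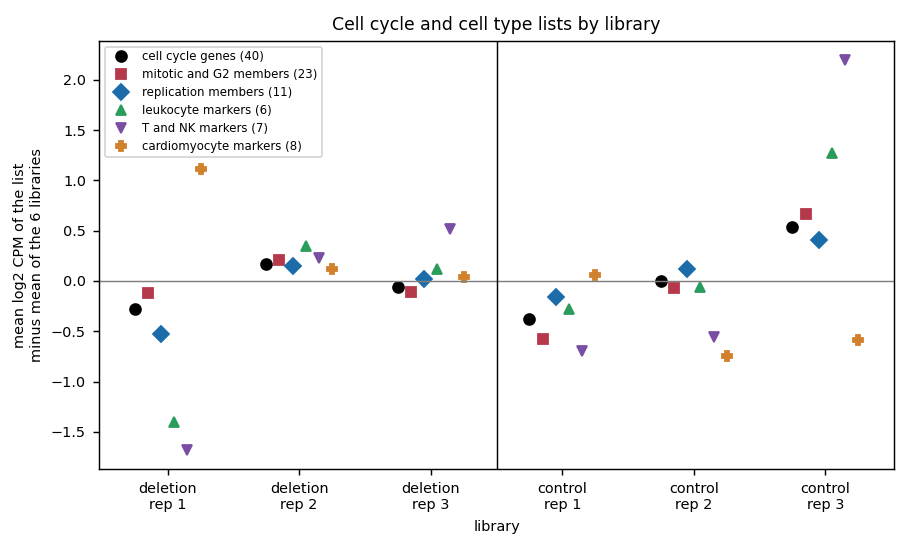
Mean log2 CPM of each gene list in a library minus its mean over the 6 libraries, for the 40 cell cycle genes, their mitotic and replication members, and markers of leukocytes, T and natural killer cells and cardiomyocytes. In control replicate 3 the cell cycle lists and both immune lists drawn are at their highest, and in deletion replicate 1 both immune lists are lowest and the cardiomyocyte list is highest.

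Other cell cycle genes outside the 40 gave no call either. Of 40 genes of origin licensing and replication forks 23 were higher and 17 lower in fitted value in deletion scars, with a median of 0.025, and of 48 measured genes among 53 of mitosis 20 were higher and 28 lower, with a median of -0.041. Control replicate 3 was the highest library in 33 of these 48 mitotic genes and in 12 of the 40 replication genes. Of 19 measured cyclins, kinases and CDC25 genes 9 were higher, of 18 genes of the RB, E2F and MuvB group 7 were higher, and of 5 measured kinase inhibitors 2 were higher. The 18 genes of the p53 response had a median of -0.18, with 11 lower. Over all 6 lists 0 genes passed the edgeR adjusted p of 0.05.

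By level, the leading genes of these lists were Rpa1 and Rfc1, subunits of the complexes that coat single-stranded DNA and load the clamp, the condensin gene Smc4 and the CENP-A chaperone gene Hjurp, Ccng1 and Ccnd3, Cdkn1b and Cdkn1c, Rbbp4 and E2f6, and Mdm2. Cyclin G1 (Ccng1), a p53 target that is in both the cyclin and the p53 list, had 1412, 809 and 764 CPM in deletion replicates 1 to 3, against 847, 430.1 and 363 CPM in control replicates 1 to 3. It was highest in deletion replicate 1, the library with the highest cardiomyocyte markers, and differed by 0.86 ± 0.41 (SE, edgeR adjusted p = 0.564). The p27 gene Cdkn1b, an inhibitor that holds cells out of the cycle, had 50.04, 48.4 and 51.6 CPM in deletion replicates 1 to 3, against 42.4, 55.3 and 55.5 CPM in control replicates 1 to 3, and its groups overlapped. Cyclin D3 (Ccnd3) had 61.3, 61.8 and 59.4 CPM in deletion replicates 1 to 3, against 54.4, 55.6 and 58.1 CPM in control replicates 1 to 3. All deletion libraries lay above all controls by a small margin, with a difference of 0.12 ± 0.11 (SE, edgeR adjusted p = 0.693), and the gene shares exonic bases with Bysl on the opposite strand. Mdm2, the ubiquitin ligase of p53, was at 102 ± 11.7 CPM in deletion scars and 87.8 ± 7.87 CPM in control scars (SD, n = 3 each). Of the 147 distinct genes tested in these lists, 5 had an unadjusted p below 0.05 with higher deletion levels (3.40%, against 5.30% of all genes) and 1 with lower ones (0.68%, against 3.04% of all genes). Named after their values were seen, they were Gmnn, Sgol2a, Cenpa, Tfdp2 and Sesn1 above 0 in fitted value and Cks1b below 0, each with an edgeR adjusted p of 0.564.

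In the authors' deposited table, the log2 fold change was below 0 for 32 of the 40 genes, against 54.7% of all genes, and their NOISeqBIO probability exceeded 0.95 for 23 of the 40, against 79.0% of all 14798 genes. In the authors' deposited table Mki67 had a log2 fold change of 0.024 with a probability of 0.315, Mcm6 one of -0.42 with a probability of 1 and Tyms one of -0.67. These were taken from the authors' transformed values, whose making is not given in the sources used here.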

How the data were processed

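RNA-seq was run on 3 deletion and 3 control libraries prepared from total RNA of infarct scars. The deposited table holds raw counts for each gene, as its header calls them. The submitters' processing notes name STAR, Trim Galore, deepTools and the build mm10, and no source used here names the counter or says whether strand was used. The authors also deposited a TMM signal per library, a log2 fold change of its group means and a NOISeqBIO probability score; these are only quoted as the authors' deposited table.

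From the counts, 14771 of 14798 genes passed edgeR's filter on low counts (filterByExpr), TMM factors were computed, and a quasi-likelihood test with genotype as the only term was fitted over all 6 libraries (edgeR 4.0.16, limma 3.58.1, R 4.3.3; residual degrees of freedom 4). P-values were adjusted over all genes tested by the Benjamini-Hochberg method at a threshold of 0.05, and DESeq2 1.42.0 was an alternative. The edgeR step was tested on simulated counts. Per-library log2 values used a prior count of 2, and levels between genes were compared as CPM per kilobase of the deposited transcript length. Exonic overlaps came from GENCODE vM21, on the same build. Tables and figures were made with Python 3.11.15, pandas 2.3.3 and matplotlib 3.10.9.

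All 40 members could be named; of each other cell cycle list, the 2 genes of highest mean CPM and any past the threshold were named. The members, the other lists and the split of replicate 1 from replicates 2 and 3 were chosen with earlier results of these data known. Alternatives covered normalization, the filter on low counts, DESeq2, each library left out, a replicate block, a term for that split, replicates 2 and 3 only, halved even counts and Rn45s left out.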

Additional observations from a re-analysis of the deposited data

How the results depend on the processing

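No cell cycle gene was called in any of the 16 alternatives run, and 13 of the 40 kept a lower fitted level in deletion scars in every one, among them Mcm3, Mcm4, Mcm6, Pcna, Tyms and E2f1. The members' median ran from -0.37 without control replicate 1 to 0.11 without control replicate 3 when single libraries were left out. Sox9 stayed between -0.64 and -0.42. Genes called over the whole table numbered 0 in the main test, 52 with DESeq2 and 1 with the term for replicate 1 against replicates 2 and 3. The number of cell cycle genes whose groups did not overlap was 1, but 3 with total counts only (19.6% of all genes), 11 with replicates 2 and 3 only (48.9% of all genes), and 1 to 9 with 1 library left out. The lowest, 1, was without deletion replicate 1 (22.9% of all genes) and the highest, 9, without control replicate 1 (41.4% of all genes), so in each of these settings the 40 had a smaller share than all genes.

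The fitted log2 difference of single genes changed sign in these cases, and the cause was not tested. With the term for replicate 1 it was 0.000264 for Ccna2, 0.0157 for Ube2c, 0.0397 for Mki67 and 7.26e-05 for Cenpe. With a replicate block, which gives the members' median as -0.12 with 0 genes called, it was 0.0128 for Ccna2, 0.0361 for Cdc20, 0.0573 for Ube2c, 0.067 for Mki67 and 0.0109 for Cenpe. The deviations of same-numbered libraries from their group means correlated at 0.48, 0.013 and 0.18, and those of differently numbered ones at -0.40 to 0.39. With 3 libraries a group, these values cannot decide whether the numbers pair the libraries. The block moved no count of calls. With replicates 2 and 3 only it was -0.36 for Ccnb2, -0.0579 for Aurkb, 0.0327 for Birc5, -0.0763 for Cenpf and -0.19 for Kif23. With total counts only it was -0.10 for Ccnd1, -0.018 for Ccnb2, -0.0469 for Aurkb, -0.0396 for Kif20a and -0.0527 for Kif23. With 1 library left out the ranges were Aurka -0.22 to 0.10, Aurkb -0.0892 to 0.49, Birc5 -0.53 to 0.48, Bub1 -0.55 to 0.34, Bub1b -0.59 to 0.43, Ccna2 -0.20 to 0.23, Ccnb1 -0.48 to 0.18, Ccnb2 -0.18 to 0.69, Ccnd1 -0.12 to 0.10, Ccnd2 -0.23 to 0.00762, Cdc20 -0.47 to 0.62, Cdca8 -0.37 to 0.48, Cdk1 -0.80 to 0.0497, Cenpe -0.22 to 0.25, Foxm1 -0.46 to 0.076, Kif11 -0.43 to 0.15, Kif23 -0.20 to 0.38, Mcm2 -0.25 to 0.16, Mcm5 -0.55 to 0.083, Mcm7 -0.22 to 0.0812, Mki67 -0.37 to 0.40, Rrm2 -0.54 to 0.22, Top2a -0.58 to 0.33, Tpx2 -0.40 to 0.12 and Ube2c -0.20 to 0.39, all fitted log2 differences. The library whose absence most often turned the sign was control replicate 3. Of the 40, 15 had fewer than 50 counts as deposited in some library, which limits the precision of their values.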
